A study of Arabidopsis thaliana with 27 samples.

Results

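The genes described here are the nuclear genes for the light-harvesting antenna and the photosystem subunits of Arabidopsis thaliana, followed in developing seeds. They were taken by locus identifier, and all 45 were found among the 33602 genes of the count files. Of these, 6 encode the antenna of photosystem I (LHCA), 15 the antenna of photosystem II (LHCB), 12 subunits of photosystem I (PSA) and 12 subunits of photosystem II (PSB). The seeds came from 3 lines. PDAT carries 2 castor transgenes expressed in seeds, RcFAH12 for a fatty acid hydroxylase and RcPDAT1a for an acyltransferase. CL37 carries RcFAH12 alone and is the background of PDAT. The fae1 line is the mutant background of both, so all 3 lines share the fae1 mutation and no line with a functional FAE1 gene was part of the design. The 27 libraries are triplicates, lettered A, B and C, of each line at 7-8, 9-10 and 11-12 days after flowering, and the labels call them biological replicates. Per the labels, siliques from about 50 plants per line, grown under constant light, were frozen before about 100 mg of seed was taken for each RNA sample.

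Photosystem II and photosystem I work in series in the thylakoid membrane: the first takes electrons from water, the second raises them to the level needed to reduce ferredoxin. LHCB proteins, of which LHCB1 and LHCB2 form the mobile trimers, pass light energy to photosystem II, and LHCA proteins form a belt on one side of photosystem I. The reaction centre proteins are encoded in the plastid, while the antenna and many small or peripheral subunits are encoded in the nucleus and imported. Developing Arabidopsis seeds are green while oil and storage protein are laid down, and they lose chlorophyll as they mature.

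Gene counts per library ran from 4126510 to 22403287. Levels are given in CPM, a gene's counts scaled by a library size that the TMM method adjusts. A gene is called higher or lower where edgeR's quasi-likelihood test gave a Benjamini-Hochberg adjusted p below 0.05 over the 18897 genes tested, and all 45 genes were among them. At 7-8 days, library A of fae1 was unlike the others. Seed storage protein genes, a list of 8, took 34.8% of its gene counts, against 2.80% and 6.72% in the fae1 B and C libraries and 5.50% to 11.7% in the PDAT and CL37 libraries of that stage. Library A of fae1 at 9-10 days also differed from its group, with storage genes at 20.9% of its gene counts against 26.7% and 29.9% in B and C. LHCA6, a gene of the set with few counts, was at 2.71 CPM there against 0.654 and 0.931 CPM in B and C. That is closer to the 4.24 and 2.98 CPM of libraries B and C at 7-8 days. Per kilobase, PSBQ1 over PSBQ2 was 0.2 in A of fae1 at 7-8 days against 0.451 and 0.403 in B and C. At 9-10 days it was 0.372 in A against 0.182 and 0.147. PSAH2 over PSAH1 was 2.18 against 4.38 and 3.65, then 3.25 against 2.26 and 2.12. PSBO2 over PSBO1 did not differ in this way (0.294 against 0.287 and 0.302, then 0.26 against 0.305 and 0.285). Whether the fae1 A libraries of 7-8 and 9-10 days were exchanged was not tested. Both were kept under their labels, and counts and called folds that move by over 1.5 times without them are also given without them. A summed list of 9 silique wall genes stayed between 5.56 and 19.5 CPM in all 27 libraries. Of the list, FUL, IND, NST1 and NST3, which mark the valve and its margin, were at 0 in 10 to 20 libraries. ALC and MUTE were at 0 in 1 and 4 libraries, and RPL (2.89 to 8.06 CPM), FAMA and MYB60 in 0. In whole seeds, fewer green cells and less RNA per green cell cannot be told apart.

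Several antenna genes are so alike that their counts cannot be fully separated. LHCB1.1, LHCB1.2 and LHCB1.3 (CAB2, CAB3 and CAB1 in RefSeq) lie side by side on chromosome 1 and their coding sequences of 804 bases are 95.6% to 96.4% identical. They differ at 47 positions, 8 of which fall in the following window of 60 coding bases, shown in capitals as a stretch where reads can tell the copies apart, with positions of RefSeq's TAIR10.1 build.
LHCB1.1, chr1:10475809-10475868, minus strand: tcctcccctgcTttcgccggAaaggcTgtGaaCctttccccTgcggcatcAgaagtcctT
LHCB1.2, chr1:10473163-10473222, minus strand: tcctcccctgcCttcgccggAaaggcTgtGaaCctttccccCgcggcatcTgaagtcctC
LHCB1.3, chr1:10478095-10478154, plus strand: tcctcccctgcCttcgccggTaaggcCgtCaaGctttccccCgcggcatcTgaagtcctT
Of the 45 genes, 37 had no 50-base stretch of exon shared with another place in the genome. The other 8 were LHCB1.1 to LHCB1.5, LHCB2.1, LHCB2.2 and LHCA2, with 70.5% (LHCB2.2) to 89.4% (LHCB1.2) of their 50-base stretches unique, and their separate counts are the less certain for it. A further limit is that 16 of the genes overlap a gene on the other strand, among them LHCB1.3, LHCB2.3, PSAH1, PSAH2, PSAE1, PSAE2, PSAN and PSBR, and the use of strand in counting is not stated.

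Antenna transcripts of photosystem II were the most abundant of the set. Per kilobase of exon, LHCB1.3 led with a mean of 4620 CPM per kb over the 27 libraries (range 1890 to 7780), followed by LHCB1.2 at 1360 and LHCB1.5 at 1250 CPM per kb. The ranges of LHCB1.2 and LHCB1.5 overlapped, and so did those of LHCB5 and PSBR, which came next at 1030 and 1020 CPM per kb. PSBR, a small subunit near the oxygen-evolving complex, was the most abundant of the PSB genes. LHCA4, whose protein holds the far-red chlorophylls of photosystem I, led the LHCA genes at 768 CPM per kb (397 to 1180). Among the PSA genes, PSAG, which helps to anchor the LHCA belt, averaged 504 CPM per kb (240 to 746) and PSAO 501 with an overlapping range. Their order changed with stage: at 7-8 days PSAO was above PSAG in the group means, at 571 against 521 CPM per kb in PDAT, 681 against 643 in CL37 and 726 against 658 in fae1, and at 11-12 days it was below, at 268 against 316, 212 against 282 and 309 against 369. At the other end, LHCB1.4 (3.14), LHCB7 (2.02) and LHCA6 (1.18 CPM per kb) were near the limit of detection, with 1436, 804 and 483 counts in all libraries together. LHCB1.3 alone had 1880532 counts.

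Together the 45 genes took a falling share of the seed transcriptome. At 7-8 days they held 3.92%, 4.53% and 4.50% of gene counts in the PDAT A, B and C libraries, 4.33%, 4.99% and 4.97% in CL37, and 2.41%, 5.56% and 5.14% in fae1. At 9-10 days the share was 2.46% to 3.06% in PDAT, 2.56% to 2.72% in CL37 and 2.92% to 3.15% in fae1. At 11-12 days it was 1.14%, 1.32% and 1.41% in PDAT, 1.01%, 0.927% and 1.02% in CL37, and 1.0%, 1.38% and 1.08% in fae1. In every line all libraries of 11-12 days lay below all libraries of 7-8 days. A share also shrinks as storage transcripts fill the library, and these took 35.4% to 36.4% (PDAT), 29.5% to 40.9% (CL37) and 40.9% to 45.5% (fae1) of counts at 11-12 days. With the 20 most abundant genes of each library left out, the mean share was still lower at the last stage: 2.3% at 11-12 days against 3.97% at 7-8 days in PDAT, 1.76% against 4.06% in CL37, and 2.39% against 3.64% in fae1. Genes of the set among those 20 were left out as well. At 7-8 days these were 1 per library in PDAT, 1 or 2 in CL37 and 1 to 3 in fae1, and at 11-12 days 0. The 2 stages are thus not compared over the same genes.

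**Figure D1:**
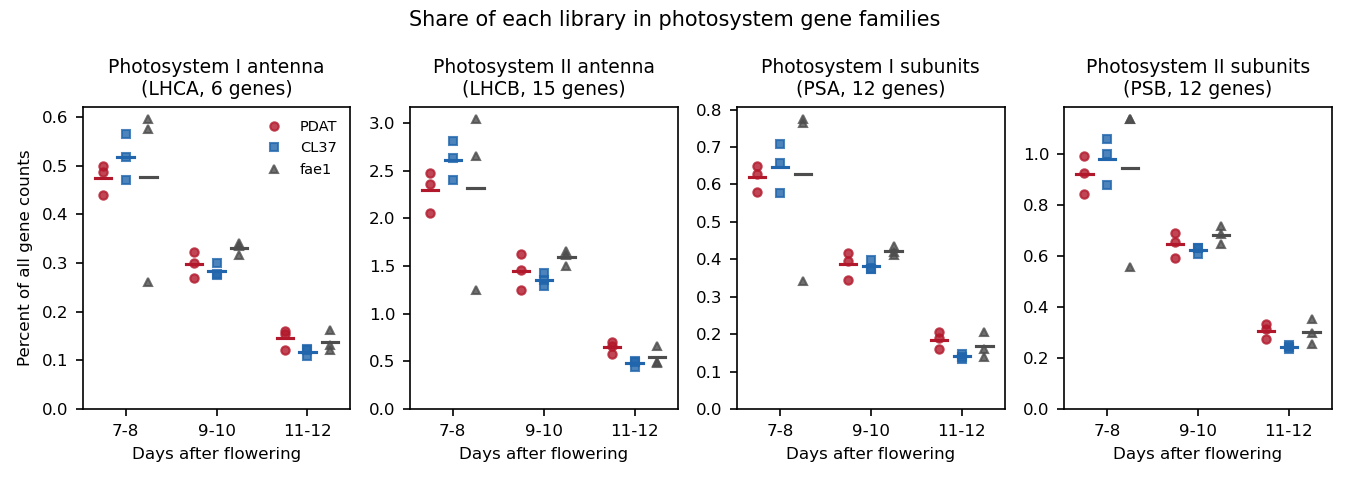
Percent of all gene counts (vertical axis, from 0) taken by each gene family in each library, by days after flowering and line. Each symbol is a library and each bar a group mean of 3; LHCB genes took 0.446% to 0.707% at 11-12 days and 1.25% to 3.04% at 7-8 days, and the low fae1 symbol at 7-8 days is the A library.

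The makeup within the set moved little. LHCB genes held 47.2% to 47.8% of the summed level per kilobase in PDAT at 11-12 days against 49.4% to 52.1% at 7-8 days. The shares were 45.5% to 46.3% against 50.1% to 53.2% in CL37, and 42.5% to 45.7% against 48.4% to 51.6% in fae1, so the LHCB share was lower at 11-12 days without overlap in each line. PSB genes held 24.8% to 25.5% against 21.5% to 23.2% in PDAT, 25.4% to 26.6% against 21.5% to 22.4% in CL37, and 26.7% to 28.9% against 21.9% to 24.3% in fae1, higher at 11-12 days without overlap. LHCA genes stayed between 8.61% and 10.2% in all libraries, and PSA genes between 16.5% and 18.5%.

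Most photosystem genes fell between the first and the last stage in all 3 lines. Of the 45, 38 were called lower and 1 higher at 11-12 than at 7-8 days in PDAT, where 26.7% of all genes tested were called lower and 27.2% higher. In CL37, 42 were lower and 1 higher (28.6% and 29.5% of all genes), and in fae1 41 were lower and 1 higher (26.5% and 24% of all genes). The median log2 fold change of the 45 genes was -0.98 in PDAT, -1.42 in CL37 and -1.02 in fae1, while that of all genes tested lay between 0 and 0.01. In all 3 lines the same 38 genes fell and 1 gene, LHCB7, rose. How many of all genes tested fell or rose in all 3 lines was not counted. Those shares can be at most the 26.5% lower and 24% higher of fae1. LHCA5 and PSB27 were called in no line.

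**Figure D2:**
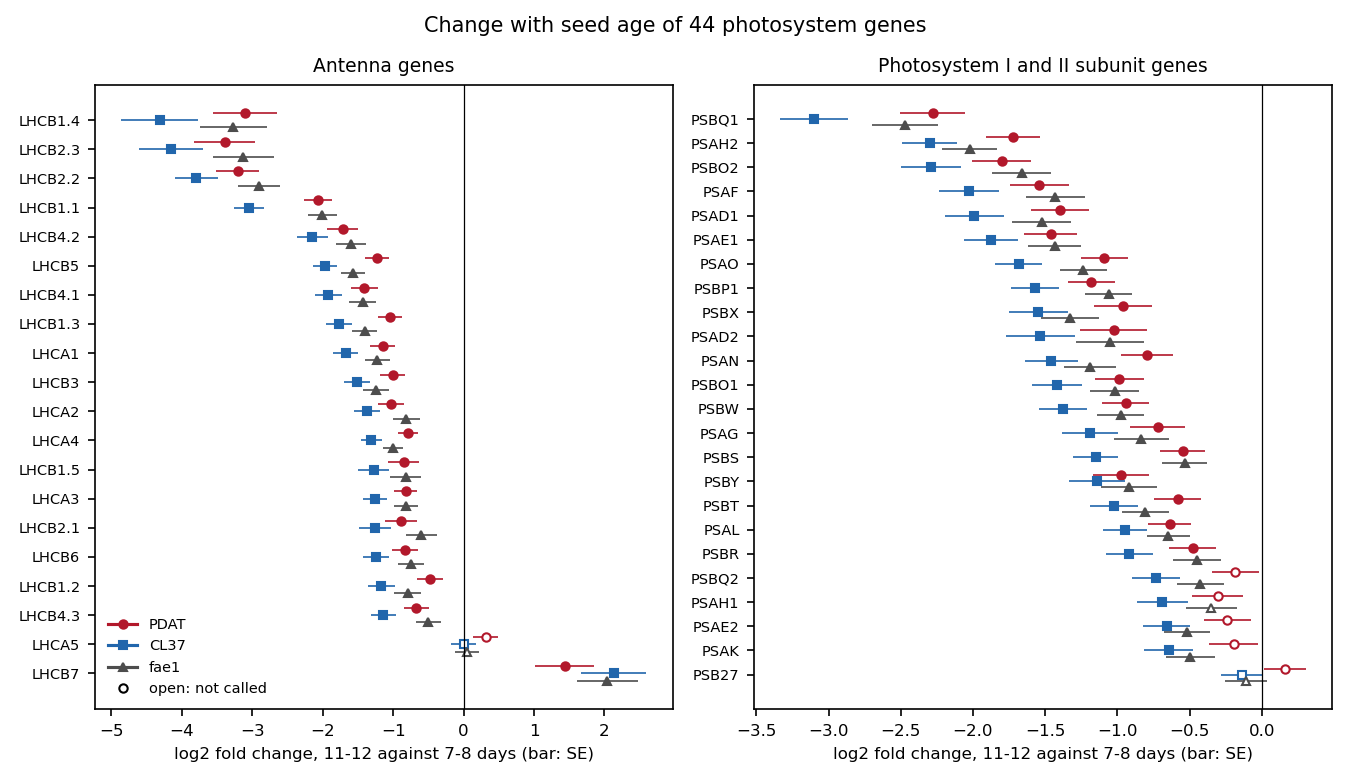
Log2 fold change of 11-12 against 7-8 days (horizontal axis) with its standard error for 44 of the 45 genes in PDAT, CL37 and fae1, in order of the CL37 value; filled symbols passed the adjusted p of 0.05, and LHCA6, with all CL37 counts of 11-12 days at 0, is left out. The folds spread from below -4 for LHCB1.4 and LHCB2.3 in CL37 to 2.13 for LHCB7 in CL37, and the CL37 symbols lie furthest left for most genes.

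All 4 families fell as groups, with few exceptions. Of 15 LHCB genes, 14 fell in each line, and their median log2 fold change was -1.04 in PDAT, -1.77 in CL37 and -1.40 in fae1. Of 6 LHCA genes, 5 fell in each line (medians -0.93, -1.34 and -0.91 in PDAT, CL37 and fae1). Of 12 PSA genes, 9 fell in PDAT, 12 in CL37 and 11 in fae1 (medians -0.91, -1.49 and -1.12). Of 12 PSB genes, 10 fell in PDAT, 11 in CL37 and 11 in fae1 (medians -0.95, -1.26 and -0.95).

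LHCB1.3 (AT1G29930, chromosome 1, 10477885 to 10479114), the main antenna transcript, gave 3230, 2960 and 3410 CPM in PDAT at 11-12 days against 5620, 7570 and 6630 CPM at 7-8 days. In CL37 the values were 2320, 2430 and 2650 CPM at 11-12 days against 7820, 9130 and 8270 CPM at 7-8 days. In fae1 they were 3060, 3540 and 2560 CPM against 6230, 9570 and 8460 CPM. The groups did not overlap in any line, and the log2 fold change was -1.04 ± 0.18 (SE) in PDAT, -1.77 ± 0.18 in CL37 and -1.40 ± 0.18 in fae1 (adjusted p 3.9e-05, 4.99e-08 and 4.8e-06). LHCA4 showed a smaller fold, with 543, 633 and 665 CPM in PDAT at 11-12 days against 928, 1090 and 1160 CPM at 7-8 days. Its log2 fold change was -0.79 ± 0.14 in PDAT, -1.31 ± 0.15 in CL37 and -1.01 ± 0.14 in fae1 (adjusted p at most 9.35e-05). PSBR fell least of the 3, with a log2 fold change of -0.48 ± 0.16 in PDAT, -0.92 ± 0.17 in CL37 and -0.45 ± 0.16 in fae1 (adjusted p 0.0176, 6.3e-05 and 0.0275). The fae1 call of PSBR was lost without any 1 of 5 of the 6 libraries (adjusted p 0.053 to 0.122; it held without A of 7-8 days). Its PDAT call was lost without library C of 7-8 days (0.132) or with each library's share of non-unique alignments in the fit (0.0676).

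Beside LHCA6, described with the atypical genes, the deepest falls in each line were those of LHCB1.4, LHCB2.3, LHCB2.2 and PSBQ1. LHCB1.4, a minor copy of the trimer protein, gave 1.07, 1.1 and 0.988 CPM in PDAT at 11-12 days against 8.17, 10.3 and 8.75 CPM at 7-8 days, a log2 fold change of -3.10 ± 0.46 (adjusted p 9.54e-06). In CL37 it was -4.31 ± 0.55 and in fae1 -3.27 ± 0.48, but the CL37 libraries of 11-12 days held as few as 3 counts. LHCB2.3 gave 3.97, 16.7 and 6.98 CPM in PDAT at 11-12 days against 67.4, 117 and 105 CPM at 7-8 days. Its log2 fold change was -3.39 ± 0.43 in PDAT, -4.15 ± 0.46 in CL37 and -3.12 ± 0.43 in fae1 (adjusted p 1.9e-06, 1.68e-07 and 1.25e-05). The groups did not overlap in any line for either gene.

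The 3 LHCB2 genes, which encode the antenna protein that moves between the photosystems when phosphorylated, did not fall alike. LHCB2.2 gave 20.3, 43.3 and 27.5 CPM in PDAT at 11-12 days against 204, 347 and 291 CPM at 7-8 days. In CL37 it gave 15.9, 23.3 and 20 CPM against 203, 298 and 323 CPM, and in fae1 37.2, 37.1 and 24.2 CPM against 134, 308 and 292 CPM. The stages did not overlap in any line, with log2 fold changes of -3.21 ± 0.30, -3.79 ± 0.31 and -2.90 ± 0.30 in PDAT, CL37 and fae1 (adjusted p 6.87e-08, 4.09e-09 and 7.73e-07). LHCB2.1, 92.1% identical to LHCB2.2 in aligned coding sequence, gave 127, 180 and 194 CPM in PDAT at 11-12 days against 224, 384 and 321 CPM at 7-8 days. Its log2 fold change was -0.89 ± 0.22 in PDAT, -1.26 ± 0.22 in CL37 and -0.60 ± 0.22 in fae1 (adjusted p 0.00181, 5.31e-05 and 0.0277). The fae1 call of LHCB2.1 was lost without library B or C of 7-8 days or A or C of 11-12 days (adjusted p 0.0619 to 0.0956) and with the share of non-unique alignments in the fit (0.0807). Per kilobase, the level of LHCB2.2 over that of LHCB2.1 was 0.2, 0.298 and 0.177 in PDAT at 11-12 days against 1.12, 1.11 and 1.11 at 7-8 days. It was 0.166 to 0.203 against 0.975 to 1.11 in CL37, and 0.156 to 0.254 against 0.668 to 1.22 in fae1, so the genes were near parity at the first stage and LHCB2.1 held most of the pair at the last. Since this pair was picked after its values were seen, its ratio is given with no test.

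The upstream sequences of these genes are shown because genes of one small family moved to different extents. Each is the 250 bases before the annotated gene start in RefSeq's TAIR10.1 build, on the gene's strand. Capitals mark 3 motifs searched on both strands: the G-box CACGTG, the I-box GATAAG and CCAATC, the last holding the CCAAT core.
LHCB2.1, chr2:1824481-1824730, minus strand: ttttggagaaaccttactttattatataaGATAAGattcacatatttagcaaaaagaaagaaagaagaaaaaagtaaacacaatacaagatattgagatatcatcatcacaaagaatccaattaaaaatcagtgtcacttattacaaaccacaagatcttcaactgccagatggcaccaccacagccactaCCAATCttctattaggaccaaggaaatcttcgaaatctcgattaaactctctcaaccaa
LHCB2.2, chr2:1800473-1800722, minus strand: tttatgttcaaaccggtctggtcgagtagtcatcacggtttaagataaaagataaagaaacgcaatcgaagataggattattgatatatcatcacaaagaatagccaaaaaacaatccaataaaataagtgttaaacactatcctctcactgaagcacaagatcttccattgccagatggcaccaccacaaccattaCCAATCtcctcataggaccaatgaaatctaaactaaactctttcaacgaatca
LHCB2.3, chr3:10255656-10255905, plus strand: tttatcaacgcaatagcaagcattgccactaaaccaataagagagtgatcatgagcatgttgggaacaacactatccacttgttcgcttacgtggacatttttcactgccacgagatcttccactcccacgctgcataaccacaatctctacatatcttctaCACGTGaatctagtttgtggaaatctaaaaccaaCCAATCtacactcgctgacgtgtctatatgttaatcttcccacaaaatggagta
PSBQ1, chr4:11334102-11334351, plus strand: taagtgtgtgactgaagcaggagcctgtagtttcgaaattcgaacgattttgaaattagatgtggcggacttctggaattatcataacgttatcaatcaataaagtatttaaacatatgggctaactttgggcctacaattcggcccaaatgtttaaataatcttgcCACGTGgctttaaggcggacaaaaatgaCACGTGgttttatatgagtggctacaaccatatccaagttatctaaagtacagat
PSBQ2, chr4:2673244-2673493, minus strand: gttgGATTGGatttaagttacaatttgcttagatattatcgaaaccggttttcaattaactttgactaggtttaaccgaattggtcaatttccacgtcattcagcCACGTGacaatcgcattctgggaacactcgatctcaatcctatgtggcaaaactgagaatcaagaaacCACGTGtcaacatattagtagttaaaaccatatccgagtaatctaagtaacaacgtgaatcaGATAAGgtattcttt
PSBQ1 and PSBQ2, which moved apart, each hold 2 G-boxes in this window, and all 3 LHCB2 windows hold CCAATC. The windows also differ: PSBQ2 holds an I-box and CCAATC, which PSBQ1 lacks. Of the LHCB2 windows, only that of LHCB2.1 holds an I-box and only that of LHCB2.3 a G-box. Over the set, 10 of 45 windows (22.2%) held a G-box, against 6.50% of the windows of 27443 genes. The I-box was in 9 (20% against 12.3%) and CCAATC in 12 (26.7% against 10.2%). TATAAA, searched as well but not capitalised, was in 19 (42.2% against 47.3%). A match of letters is a description and was not set against any binding data.

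Paralogous subunit genes fell unequally too, and in each of 5 pairs 1 copy took a larger part of the pair's transcript at the later stage. PSBQ proteins belong to the oxygen-evolving complex of photosystem II. PSBQ1 (AT4G21280) gave 35.3, 45.1 and 39.7 CPM in PDAT at 11-12 days against 171, 203 and 208 CPM at 7-8 days. In CL37 it gave 24.6, 29.3 and 26.6 CPM against 212, 226 and 253 CPM, and in fae1 44.7, 45.0 and 37.1 CPM against 126, 294 and 281 CPM. No line showed overlap between the stages, and the log2 fold change was -2.28 ± 0.23, -3.10 ± 0.24 and -2.47 ± 0.23 in PDAT, CL37 and fae1 (adjusted p 1.17e-07, 1.53e-09 and 5e-07). PSBQ2 (AT4G05180) gave 524, 502 and 625 CPM in PDAT at 11-12 days against 539, 639 and 696 CPM at 7-8 days, which overlap, and was not called there (-0.18 ± 0.16, adjusted p 0.36). It fell in CL37 (-0.73 ± 0.16, adjusted p 0.000622) and in fae1 (-0.42 ± 0.16, adjusted p 0.0353). The fae1 call of PSBQ2 was lost without library B or C of 7-8 days or A or C of 11-12 days (adjusted p 0.0773 to 0.162) and with no expression filter (0.0536).

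PSAH proteins dock the mobile antenna on photosystem I. PSAH2 gave 60.1, 59.2 and 64.0 CPM in PDAT at 11-12 days against 187, 206 and 211 CPM at 7-8 days, a log2 fold change of -1.72 ± 0.19 (adjusted p 2.78e-07), and it fell in CL37 (-2.3 ± 0.19) and fae1 (-2.02 ± 0.19). PSAH1 gave 95.9, 93.5 and 132 CPM in PDAT at 11-12 days against 117, 145 and 136 CPM at 7-8 days. It passed the test in CL37 (-0.69 ± 0.18, adjusted p 0.0022) but not in PDAT (-0.30 ± 0.18, adjusted p 0.151) or fae1 (-0.35 ± 0.18, adjusted p 0.102), though it passed in PDAT without library C of 11-12 days (0.043) and in fae1 without library B of 11-12 days, with upper-quartile scaling or with the replicate block. Per kilobase, PSAH2 stood at 0.901 to 1.18 times PSAH1 in PDAT at 11-12 days, against 2.63 to 2.96 times at 7-8 days.

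The same held for PSAE, a stromal subunit near the ferredoxin site, and for PSBO, the manganese-stabilising protein. PSAE1 over PSAE2, per kilobase, was 0.444 to 0.649 in PDAT at 11-12 days against 1.17 to 1.32 at 7-8 days. PSAE1 fell in all 3 lines (-1.46 ± 0.18, -1.88 ± 0.19 and -1.44 ± 0.18 in PDAT, CL37 and fae1), while PSAE2 passed the test in CL37 (-0.66 ± 0.16) and fae1 (-0.52 ± 0.16) and not in PDAT (-0.24 ± 0.16, adjusted p 0.221). Its fae1 call was lost without library C of 7-8 days (0.0616). PSBO2 over PSBO1 was 0.164 to 0.221 in PDAT at 11-12 days against 0.322 to 0.338 at 7-8 days, with both genes falling in every line. PSAD1 over PSAD2, for the ferredoxin-docking subunit, differed less, with 1.53 to 1.87 in PDAT at 11-12 days against 2.04 to 2.37 at 7-8 days.

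The ratio within each of these 5 pairs was tested over the 18 libraries of 7-8 and 11-12 days by an exact two-sided permutation of stages within lines. The mean change of the log2 ratio was -2.12 for PSBQ1/PSBQ2, -1.54 for PSAH2/PSAH1, -1.10 for PSAE1/PSAE2, -0.78 for PSBO2/PSBO1 and -0.43 for PSAD1/PSAD2. Each had p = 0.00025, the smallest that the 8000 arrangements can give, and 0.00025 after adjustment over the 5 pairs (exact permutation test, n = 9 libraries per stage). The change was negative in each of the 3 lines for all 5 pairs. The test and the direction in which each ratio is written were chosen after the data were seen. PSAD2, PSAE1, PSAE2, PSAH1 and PSAH2 overlap another annotated gene, which can add reads to their counts.

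**Figure D3:**
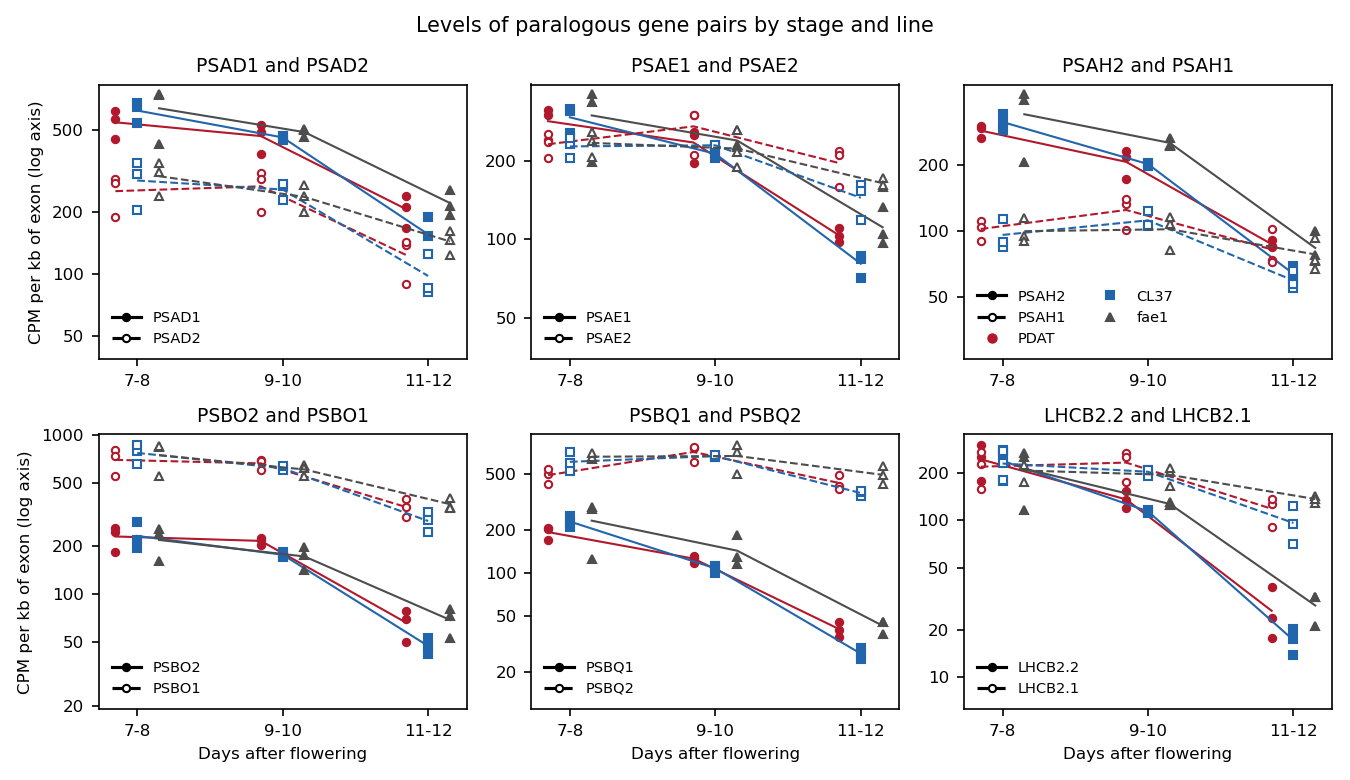
Level per kilobase of exon (CPM per kb, log axis) of the genes of 6 pairs at each stage in PDAT, CL37 and fae1; each symbol is a library, lines join group means, and filled symbols with solid lines are the gene that fell further. PSAE1 starts above PSAE2 and ends below it in the group means of all 3 lines, and LHCB2.2 starts level with LHCB2.1 and ends well below it.

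The 5 LHCB1 genes also differed among themselves. LHCB1.1 (AT1G29920) gave 145, 222 and 179 CPM in PDAT at 11-12 days against 620, 886 and 781 CPM at 7-8 days. In CL37 it gave 108, 126 and 131 CPM against 945, 1070 and 987 CPM, and in fae1 243, 268 and 180 CPM against 617, 1070 and 1090 CPM. Its log2 fold change was -2.07 ± 0.21, -3.04 ± 0.21 and -2.0 ± 0.21 in PDAT, CL37 and fae1 (adjusted p 1.17e-07, 6.72e-10 and 7.73e-07). LHCB1.2 fell less, with log2 fold changes of -0.47 ± 0.19, -1.17 ± 0.19 and -0.79 ± 0.19 in PDAT, CL37 and fae1 (adjusted p 0.0353, 1.74e-05 and 0.00166). Its PDAT call was lost without library B or C of 7-8 days or A or B of 11-12 days (adjusted p 0.0875 to 0.18) and with the share of non-unique alignments in the fit (0.107). LHCB1.5 fell with -0.85 ± 0.22, -1.28 ± 0.22 and -0.82 ± 0.22 in the same order (adjusted p at most 0.00429). Per kilobase, LHCB1.1 stood at 0.042 to 0.0704 of LHCB1.3 in PDAT at 11-12 days against 0.103 to 0.11 at 7-8 days. The 50-base stretches that these copies share limit the separate values.

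The atypical antenna genes behaved in their own ways. LHCB7, a rarely expressed relative of the LHCB proteins, gave 4.61, 2.93 and 3.46 CPM in PDAT at 11-12 days against 1.17, 1.46 and 1.4 CPM at 7-8 days. In CL37 it gave 3.16, 2.81 and 3.69 CPM against 1.09, 0.383 and 0.694 CPM, and in fae1 6.37, 4.58 and 6.54 CPM against 3.19, 0.725 and 0.308 CPM. It was the 1 gene of the set that rose, by a log2 fold change of 1.44 ± 0.42 in PDAT, 2.13 ± 0.46 in CL37 and 2.04 ± 0.43 in fae1 (adjusted p 0.00583, 0.000464 and 0.00067), and the groups did not overlap in any line. Without library A of fae1 at 7-8 days the fae1 log2 fold change was 3.47 and still passed the test. The PDAT call was lost with the share of non-unique alignments in the fit (1.03, adjusted p 0.181). LHCA5, a linker between photosystem I and the NAD(P)H dehydrogenase-like complex, gave 28.2, 19.5 and 24.1 CPM in PDAT at 11-12 days against 16.9, 19.7 and 21.3 CPM at 7-8 days. Its log2 fold change was 0.31 ± 0.17 in PDAT, 0.00 in size with an SE of 0.18 in CL37, and 0.05 ± 0.18 in fae1, none of which passed the test (adjusted p 0.134, 0.999 and 0.836). LHCA6, its partner in that link, had 0 counts in all 3 CL37 libraries of 11-12 days, against a mean of 3.47 CPM at 7-8 days. Set at 3 counts per library, this is at least 11.6-fold lower, a limit that covers counting error only, and the median fold of the 45 genes in CL37 is the same with LHCA6 at that bound. In PDAT LHCA6 gave 0.322, 0.275 and 0.00 CPM at 11-12 days against 2.51, 3.59 and 2.89 CPM, and in fae1 0.369, 0.00 and 0.00 CPM against 0.618, 4.24 and 2.98 CPM. LHCB4.3, a minor CP29 form, fell with log2 fold changes of -0.67 ± 0.18 in PDAT, -1.14 ± 0.18 in CL37 and -0.50 ± 0.18 in fae1 (adjusted p 0.00337, 1.55e-05 and 0.0247). Its fae1 call was lost without library C of 7-8 days or A or C of 11-12 days (0.0633 to 0.163). PSB27, which serves in the assembly and repair of photosystem II, gave 104, 97.4 and 115 CPM in PDAT at 11-12 days against 78.5, 106 and 98.7 CPM at 7-8 days, and its log2 fold change was 0.16 ± 0.15, -0.14 ± 0.15 and -0.11 ± 0.15 in PDAT, CL37 and fae1 (adjusted p 0.365, 0.439 and 0.557).

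In PDAT and CL37 most of the fall came in the later step. Between 9-10 and 11-12 days, 39 genes were called lower at the later stage in PDAT, 42 in CL37 and 39 in fae1, with 11.6%, 15% and 19.6% of all genes tested lower. The fae1 count of lower genes was 25 without library A of 11-12 days (13.1% of all genes) and 23 with the share of non-unique alignments in the fit (5.96%). LHCB7 was higher in that step in fae1, where 13.4% of all genes were higher, and none of the 45 was in PDAT or CL37. The median log2 fold change of this step was -0.98 in PDAT, -1.16 in CL37 and -0.81 in fae1. In the earlier step, 9-10 against 7-8 days, 5 genes were lower and 3 higher in PDAT (16.3% and 16.2% of all genes), and 10 lower and 1 higher in CL37 (12.6% and 13.2% of all genes). The median of the earlier step was -0.03 in PDAT and -0.27 in CL37. The later fold was the more negative in 43 of 45 genes in PDAT and in 45 of 45 in CL37. Both steps share the libraries of 9-10 days, so these folds are not independent.

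The genes that moved early in both CL37 and PDAT were LHCB1.4, LHCA6, LHCB2.2, PSBQ1 and PSAH2, all lower at 9-10 days. How many of all genes were lower in both lines was not counted. In PDAT the 5 lower and 3 higher of 45 were smaller shares than the 16.3% and 16.2% of all genes. In CL37 the 10 lower were a larger share than the 12.6% of all genes. LHCA6 and LHCB1.4 had few counts. LHCB1.4 had a log2 fold change of -1.95 ± 0.41 in PDAT and -1.65 ± 0.44 in CL37 (adjusted p 0.0015 and 0.0109). PSBQ1 gave 128, 132 and 118 CPM at 9-10 days in PDAT, below all 3 libraries of 7-8 days, a log2 fold change of -0.63 ± 0.22, against -1.1 ± 0.22 in CL37 (adjusted p 0.0296 and 0.00225). In PDAT, PSBQ2 (0.55 ± 0.16), PSBR (0.51 ± 0.16) and PSB27 (0.39 ± 0.15) rose in this step (adjusted p 0.0144, 0.0213 and 0.0434). PSBQ2 gave 775, 976 and 983 CPM at 9-10 days in PDAT, above the 539, 639 and 696 CPM of 7-8 days. These early calls were sensitive: with 1 library left out, 1 to 5 genes were called in PDAT and 5 to 10 in CL37, and none of the 45 in PDAT once each library's share of non-unique alignments entered the fit. In PDAT that share was 6.30% to 10.5% at 9-10 days and 16.6% to 19.4% at 7-8 days.

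In fae1 no gene of the set, and 0% of all genes tested, was called by edgeR between 9-10 and 7-8 days, and none of the set by DESeq2. Of the 45, 7 had an unadjusted p below 0.05, against 1477 of the 18897 genes tested. The lack of calls rested on library A of 7-8 days: without it, 16 genes were lower and 1 was higher, where 6.57% of all genes tested were lower and 12.5% higher. Without the A libraries of both stages 12 were lower and 1 higher, where 13.8% of all genes were lower and 15.4% higher. For example, LHCB2.2 gave 134 CPM in that library against 308 and 292 CPM in the other fae1 libraries of 7-8 days and 143 to 150 CPM at 9-10 days. The fae1 counts of 11-12 against 7-8 days did not rest on it, since 42 genes were called with and without this library.

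Between lines, few genes of the set were called at the first 2 stages. At 7-8 days, no gene was called between PDAT and CL37 (0.0106% of all genes called) or between CL37 and fae1 (0.0265%), and none by DESeq2. An unadjusted p below 0.05 was found for 3 and 0 of the 45, against 2148 and 1426 of the 18897 genes tested. PSAN, a lumenal photosystem I subunit for plastocyanin binding, was lower in PDAT than in fae1 at 7-8 days, where 3.87% of all genes were lower. It gave 294, 272 and 386 CPM in PDAT against 339, 528 and 573 CPM in fae1, groups that overlapped, with a log2 fold change of -0.60 ± 0.18 (adjusted p 0.0398). Without library A of fae1, 6 genes were lower and 1 higher in PDAT than in fae1, where 9.05% of all genes were lower and 11.3% higher. None was called without library B or C of fae1 or without A or B of PDAT. At 9-10 days no gene was called in any of the 3 comparisons by edgeR or DESeq2, where 0.0212% (PDAT against CL37), 0.741% (CL37 against fae1) and 0.09% (PDAT against fae1) of all genes were called. In the same order, 0, 0 and 2 of the 45 had an unadjusted p below 0.05, against 725, 2411 and 2441 of the 18897 genes tested.

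At 11-12 days the fitted levels of the 45 genes were lowest in CL37, though few of them were called. Their summed share of gene counts overlapped between CL37 (0.927% to 1.02%) and fae1 (1.0% to 1.38%), and not between CL37 and PDAT (1.14% to 1.41%). Against fae1, 6 genes were lower in CL37 and none higher, where 5.04% of all genes were lower, and the median log2 fold change of the 45 was -0.42, against -0.02 for all genes. The fitted fold was negative for 45 of 45 genes, and for 34 of them all 3 CL37 libraries lay below all 3 fae1 libraries, as they did for 19.5% of all genes. Against CL37, no gene was called in PDAT by edgeR or DESeq2, where 2.65% of all genes were called and 0.0953% were higher. The fitted fold was positive for 45 of 45, with a median of 0.34 against 0.02 for all genes, and the lowest adjusted p was 0.17. Of the 45, 18 had an unadjusted p below 0.05, against 2020 of the 18897 genes tested. With both fae1 A libraries left out of the fit, 4 genes were higher in PDAT than in CL37 (0.448% of all genes). For 21 genes all 3 PDAT libraries lay above all 3 CL37 libraries, as they did for 6.11% of all genes. These comparisons share the CL37 libraries and are not independent. The 45 genes are not independent of one another either, so the counts of signs are no test. PDAT and fae1 differed by a median of -0.08 (all genes 0.03), with no gene called by edgeR (6.61% of all genes called) and 1 called by DESeq2. Of the 45, 2 had an unadjusted p below 0.05, against 4561 of the 18897 genes tested. This comparison uses again the PDAT and fae1 libraries of the other 2, so it is not independent of them.

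The 6 genes lower in CL37 than in fae1 were 4 photosystem II subunits, 1 photosystem I subunit and 1 antenna gene. LHCB1.1 gave 108, 126 and 131 CPM in CL37 against 243, 268 and 180 CPM in fae1, a log2 fold change of -0.92 ± 0.20 (adjusted p 0.00218). PSBS, the sensor of energy-dependent quenching, gave 333, 448 and 402 CPM against 574, 666 and 631 CPM (-0.66 ± 0.16, adjusted p 0.00468). The CL37 and fae1 libraries overlapped for neither gene. PDAT gave 145 to 222 CPM of LHCB1.1, overlapping fae1, and 435 to 544 CPM of PSBS, overlapping CL37. PSBR gave 386, 468 and 533 CPM in CL37 against 683, 726 and 727 CPM in fae1 (-0.62 ± 0.16, adjusted p 0.0107). PSAO, which helps to balance light between the photosystems, gave 169, 168 and 184 CPM against 228, 295 and 236 CPM (-0.54 ± 0.16, adjusted p 0.0225). PSBP1, of the oxygen-evolving complex, gave 296, 351 and 341 CPM against 447, 525 and 449 CPM (-0.52 ± 0.16, adjusted p 0.0298). PSBQ1 gave 24.6, 29.3 and 26.6 CPM against 44.7, 45.0 and 37.1 CPM (-0.65 ± 0.22, adjusted p 0.0477). The count was 11 by DESeq2, and with 1 library of 11-12 days left out it was 2 (CL37 A), 3 (fae1 B) or 10 (CL37 B) where it moved most, all lower in CL37. Without CL37 A, 1.38% of all genes were lower. The count was 13 with upper-quartile scaling, 20 with the replicate block (5.36% of all genes) and 19 with both fae1 A libraries left out of the fit (9.8%). Where no share of all genes is given for a fit, its count shows only how far the calls moved. The PSBQ1 call was lost without any 1 of the 6 libraries (adjusted p 0.0532 to 0.176), with RLE scaling (0.0518) and with no filter (0.0527). That of PSBP1 was lost without any 1 of them but CL37 B (0.0501 to 0.153), that of PSAO without fae1 B or CL37 A or B (0.0556 to 0.136), and that of PSBR without CL37 A (0.0905). PSBP1 and PSBR overlap another annotated gene.

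**Figure D4:**
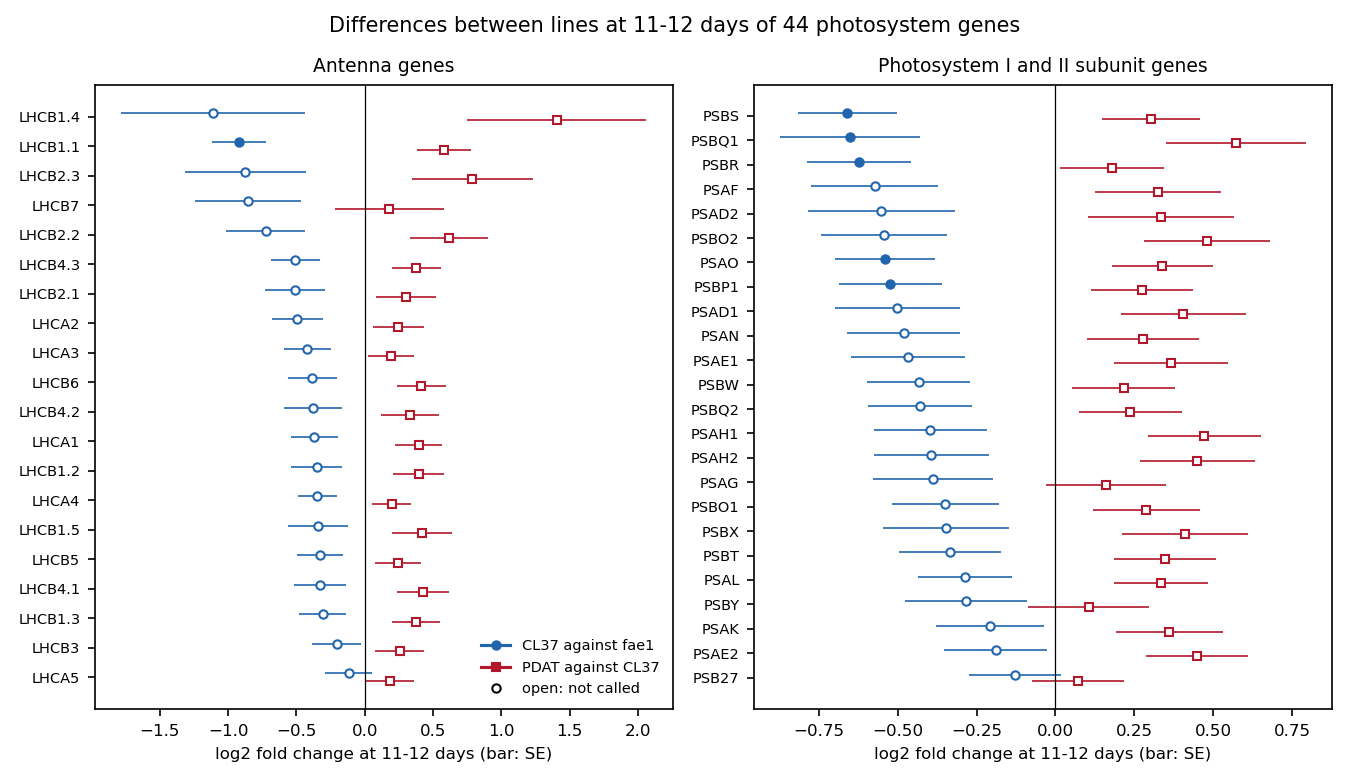
Log2 fold change at 11-12 days (horizontal axis) with its standard error of CL37 against fae1 and of PDAT against CL37, for 44 genes (LHCA6 left out); filled symbols passed the adjusted p of 0.05. CL37 lies below fae1 for all 44 and below PDAT for all 44, while 6 of the CL37 against fae1 differences and none of the PDAT against CL37 differences passed.

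Markers of seed tissues moved with stage, except the embryo sum in PDAT and CL37, and in part with line. Seed storage genes took 29.5% to 40.9% of gene counts in CL37 at 11-12 days, against 40.9% to 45.5% in fae1. A sum of 4 embryo genes (LEC1, LEC2, FUS3 and ABI3) gave 189 to 316 CPM in CL37 and 316 to 409 CPM in fae1 at that stage. ABI3 led this sum, with a median of 155 CPM over the 27 libraries, while LEC1 ranged from 2.1 to 77.5 CPM. A sum of 8 seed coat genes, led by TT10 and MUM4, gave 152 to 178 CPM in CL37 and 160 to 238 CPM in fae1, which overlap. PDAT gave 35.4% to 36.4% for storage, 185 to 289 CPM for embryo and 180 to 322 CPM for seed coat genes. With age the seed coat sum was lower: 180 to 322 CPM at 11-12 days against 903 to 1270 CPM at 7-8 days in PDAT, with 152 to 178 against 664 to 1130 CPM in CL37 and 160 to 238 against 390 to 906 CPM in fae1. A sum of 8 endosperm genes gave 6.32 to 15.5 CPM at 11-12 days and 82.0 to 101 CPM at 7-8 days in PDAT. It was mainly that of SUC5 and RGE1, with medians of 22.0 and 4.8 CPM over the 27 libraries. Of that list, MINI3 and IKU2 were at 0 in 21 and 18 of the 27 libraries, and FIS2, MEA, FWA and AGL62 in 11, 8, 10 and 6. The part of tissue makeup in the photosystem gene results was not tested.

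The change with age was itself larger in CL37 than in fae1 for 1 gene. For LHCB1.1 the difference of the log2 fold changes was -1.03 ± 0.28 (adjusted p 0.0265), where 1.04% of all genes had a lower change in CL37. The median difference over the 45 genes was -0.45, against 0.02 for all genes, and the fold was more negative in CL37 for 44 of them. The fae1 folds include library A of 7-8 days, where the set took 2.41% of gene counts, against 5.56% and 5.14% in B and C. The median and the count of 44 are not given without that library. The LHCB1.1 call was lost without the fae1 A or B library of 11-12 days (adjusted p 0.0599 and 0.0849), the CL37 B or C library of 7-8 days (0.0627 and 0.0512) or the CL37 A library of 11-12 days (0.0847). Between PDAT and CL37 no difference in the change with age was called by edgeR or DESeq2, with 0.704% of all genes called and a median of 0.48 over the 45 genes against 0.02 for all genes. Of the 45, 13 had an unadjusted p below 0.05, against 2162 of the 18897 genes tested. With both fae1 A libraries left out of the fit, 2 genes were called, both higher (0.428% of all genes). Between PDAT and fae1 none was called by either tool (7.64% of all genes called), and the median was 0.03 against 0.08 for all genes. Of the 45, 0 had an unadjusted p below 0.05, against 5208 of the 18897 genes tested. Without both fae1 A libraries 3 were higher and 1 lower (13.9% of all genes in each direction).

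Genes that supply the photosystems with chlorophyll fell with them. Of 22 genes of chlorophyll synthesis, 21 were tested, and 18 fell in PDAT, 20 in CL37 and 18 in fae1 between 7-8 and 11-12 days, with none higher (medians -1.14, -1.77 and -1.08). For this and the lists that follow, the shares of all genes tested were 26.7% lower and 27.2% higher in PDAT, 28.6% and 29.5% in CL37, and 26.5% and 24% in fae1. PORC and PORB, the light-dependent protochlorophyllide oxidoreductases, fell most in PDAT (log2 fold changes -3.45 ± 0.39 and -2.71 ± 0.30, adjusted p 5.18e-07 and 3.75e-07). In CL37 against fae1 at 11-12 days, where 5.04% of all genes were lower, 5 were lower, among them CHLG for chlorophyll synthase (-0.83 ± 0.15, adjusted p 0.000445) and CHLD for a magnesium chelatase subunit (-0.81 ± 0.20, adjusted p 0.0073).

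Genes of chlorophyll breakdown did not show one direction in every line and fit. Of 10, 3 rose against 1 that fell in PDAT, 6 against 2 in CL37 and 6 against 1 in fae1 (medians 0.30, 0.73 and 0.75). The PDAT count of higher genes is near the 27.2% of all genes. With the share of non-unique alignments in the fit, 2 rose against 2 that fell in PDAT and 3 against 2 in CL37. The shares of all genes called in that fit are not given, so these counts show only how far the calls moved. CLH2, a chlorophyllase, rose by a log2 fold of 1.77 ± 0.29 and PPH, the pheophytinase, by 1.25 ± 0.25 in PDAT (adjusted p 2.96e-05 and 0.000199), while NOL, a chlorophyll b reductase, fell (-0.52 ± 0.15, adjusted p 0.0056). PPH was also higher in CL37 than in fae1 at 11-12 days (0.75 ± 0.24, adjusted p 0.0372), and HCAR (-0.59 ± 0.16) and NOL (-0.46 ± 0.15) were lower. These calls were lost without fae1 B or C or CL37 A or B of 11-12 days (PPH), without fae1 B or CL37 A (HCAR), and without any 1 of the 6 libraries but CL37 C (NOL), at an adjusted p of up to 0.173, 0.108 and 0.264 in that order.

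Among electron carriers between and beyond the photosystems, members moved in both directions. Of 14 genes, 6 fell against 2 that rose in PDAT, 10 against 1 in CL37 and 7 against 2 in fae1 (medians -0.23, -0.84 and -0.41), against 26.7%, 28.6% and 26.5% of all genes lower in PDAT, CL37 and fae1. FD2, the main leaf ferredoxin, and PETE1, a plastocyanin, fell in PDAT with log2 fold changes of -1.77 ± 0.19 and -1.65 ± 0.22 (adjusted p 2.94e-07 and 2.26e-06). PGR5 (0.88 ± 0.24) and PGRL1B (0.48 ± 0.17), of cyclic electron flow around photosystem I, rose in PDAT (adjusted p 0.0034 and 0.0227). Both calls were lost with the share of non-unique alignments in the fit (0.146 and 0.258), and that of PGRL1B without library A of 7-8 days or C of 11-12 days. In CL37 against fae1 at 11-12 days, where 5.04% of all genes were lower, 4 were lower, led by FD2 (-0.85 ± 0.19) and FNR2 (-0.71 ± 0.15), a ferredoxin reductase.

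Of 9 genes for antenna insertion and its control, 5 fell against 2 that rose in PDAT, 4 against 2 in CL37 and 3 against 3 in fae1 (medians -0.53, -0.36 and 0.09). The fae1 counts are near the shares of all genes, 26.5% lower and 24% higher. CPSRP54 (-1.91 ± 0.22) and CPSRP43 (-1.83 ± 0.23), which carry LHC proteins to the thylakoid, fell most in PDAT (adjusted p 6.29e-07 and 1.27e-06). STN7 (0.64 ± 0.23), the kinase that phosphorylates LHCB proteins, and ZEP (0.75 ± 0.26), of the xanthophyll cycle, rose in PDAT (adjusted p 0.021 and 0.0197). Neither passed with the share of non-unique alignments in the fit (0.397 and 0.34) or without library A of 7-8 days or B of 11-12 days, nor did STN7 without library C of 11-12 days. At 11-12 days STN8, a kinase of the photosystem II core, was the 1 gene of this list that was called, lower in CL37 than in fae1 (-0.54 ± 0.14, adjusted p 0.00965), a call lost without CL37 A (0.084). In that comparison 5.04% of all genes were lower.

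Regulators of photosynthesis genes were split. Of 12 on the list, 11 were tested, and 5 fell against 3 that rose in PDAT, 7 against 2 in CL37 and 6 against 4 in fae1 (medians -0.31, -1.06 and -0.76). The PDAT count of higher genes is near the 27.2% of all genes. GLK1, an activator of antenna and chlorophyll synthesis genes, fell with log2 fold changes of -2.96 ± 0.27 in PDAT, -3.2 ± 0.27 in CL37 and -2.40 ± 0.26 in fae1 (adjusted p 5.34e-08, 6.34e-09 and 1.06e-06). GLK2, its paralogue, rose in PDAT (0.53 ± 0.22) and fae1 (0.71 ± 0.22) and was not called in CL37 (0.24 ± 0.22, adjusted p 0.363). The PDAT call of GLK2 was lost in 11 of 14 alternatives (adjusted p 0.0522 to 0.446), among them each left-out PDAT library of these stages but A of 11-12 days, and the fae1 call without library B of 7-8 days (0.0872) or with the share of non-unique alignments in the fit. SIG6, a plastid sigma factor, fell in PDAT (-1.43 ± 0.17), whereas SIG5 (2.07 ± 0.36) and HY5 (1.24 ± 0.20), a light-signalling factor, rose (adjusted p 5.52e-05 and 2.08e-05). SIG3 (-0.89 ± 0.26) and SIG6 (-0.84 ± 0.18) were among 3 regulators lower in CL37 than in fae1 at 11-12 days, where 5.04% of all genes were lower. The SIG3 call was lost without fae1 A or CL37 A.

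Relatives of the antenna proteins that do not belong to the stable antenna moved in both directions. Of 8, 4 fell against 2 that rose in PDAT, 4 against 1 in CL37 and 4 against 2 in fae1 (medians -0.06, -0.47 and -0.30). The counts of higher genes in PDAT and fae1 are near the 27.2% and 24% of all genes. ELIP1, for an early light-induced protein, rose in PDAT by a log2 fold of 2.73 ± 0.37 and SEP2 by 0.50 ± 0.17 (adjusted p 3.26e-06 and 0.0187). The SEP2 call was lost without library A of 7-8 days or B of 11-12 days and with the share of non-unique alignments in the fit (0.0775 to 0.103). ELIP2 (-1.21 ± 0.19) and LIL3:1 (-1.05 ± 0.18) fell there (adjusted p 1.69e-05 and 3.56e-05). OHP1 (-0.64 ± 0.18) and LIL3:1 (-0.52 ± 0.18) were among 3 genes lower in CL37 than in fae1 at 11-12 days, where 5.04% of all genes were lower. The LIL3:1 call was lost without any 1 of the 6 libraries (0.0635 to 0.18) and by DESeq2, and that of OHP1 without fae1 B or C or CL37 B. Of 7 plastid-encoded photosystem genes, 1 fell in PDAT (0 to 6 under the alternatives), 7 in CL37 and 6 in fae1, but the library kit selects for poly(A) tails, which plastid transcripts mostly lack.

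**Figure D5:**
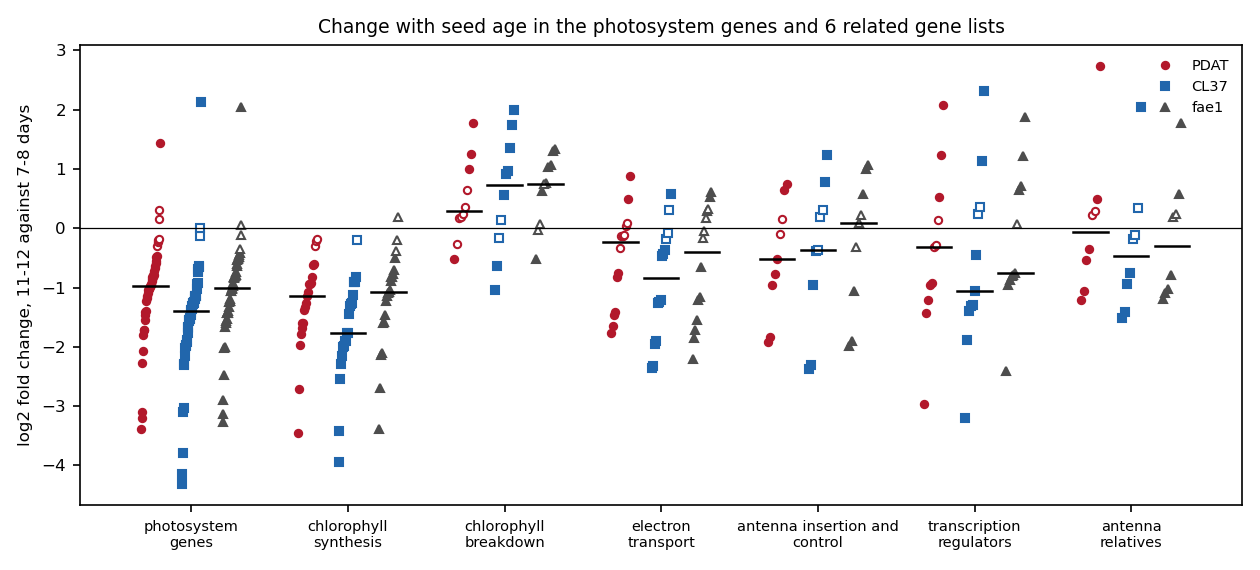
Log2 fold change of 11-12 against 7-8 days (vertical axis) for each gene of the photosystem set (LHCA6 left out) and of 6 related lists, in PDAT, CL37 and fae1. Filled symbols passed the adjusted p of 0.05 and black bars are medians of the genes plotted; chlorophyll synthesis lies below 0 like the photosystem genes, while the medians of chlorophyll breakdown lie above 0 in all 3 lines.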

How the data were processed

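RNA from developing seeds was sequenced by the submitters from TruSeq mRNA libraries. Per the submitters' processing notes the build was TAIR10 and the tools included TopHat2 2.0.3, Trimmomatic 0.22, bcl2fastq 1.8.2, HTSeq 0.5.4p3 and Cufflinks 2.0.1, without roles or settings. For every library the authors deposited whole-number read counts by gene, not normalized, with 5 summary lines (4.68% to 20.5% of a file's total) that entered neither the library sizes nor any test. The authors' FPKM table was not used. The 45 genes and the other lists were chosen with earlier results of these data known, as were the rules for which genes are named: the most abundant of each family, the called genes of largest change, the atypical antenna genes, the paralogues and the leading genes of each list.

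The analysis used edgeR 4.0.16 under R 4.3.3: TMM scaling, its expression filter, a robust quasi-likelihood fit of the 9 groups over all 27 libraries (residual degrees of freedom 18, common biological coefficient of variation 0.209), 2-sided contrasts and Benjamini-Hochberg adjustment over 18897 genes. Fold changes are edgeR log2 values with their standard error. Scripts were tested on simulated counts. DESeq2 1.42.0, other scalings, no filter, a replicate block, a covariate and left-out libraries were the alternatives. Ratios of pairs used CPM plus 0.5. No pair of replicates agreed within sampling noise (chi-square over degrees of freedom, 2.88 to 252). Sequences and exon lengths are from RefSeq's TAIR10.1 annotation, in which 44 of the 45 genes matched by name (PSBT is PSBTN there) and all overlapped the deposited positions.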

Additional observations from a re-analysis of the deposited data

Results flagged for a closer look

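The change of LHCB1.1 with age (11-12 against 7-8 days) differed between CL37 and fae1 by a log2 value of -1.03 ± 0.28 (SE; edgeR quasi-likelihood interaction test, adjusted p 0.0265), and it was picked out because the difference itself passed the test. The libraries gave 108, 126 and 131 CPM at 11-12 days against 945, 1070 and 987 CPM at 7-8 days in CL37, and 243, 268 and 180 CPM against 617, 1070 and 1090 CPM in fae1. Groups of 3 libraries are too small for the test of a single library that stands apart.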

How the results depend on the processing

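Of the 45 genes, 36 to 43 were called in fae1, 43 in CL37 and 35 to 40 in PDAT between 7-8 and 11-12 days under every alternative run, 36 to 42 and 37 to 40 in fae1 and PDAT with 1 library left out. Counts elsewhere moved more, and the causes were not tested. Without the share of all genes called in the same fit, such a count shows only how far the calls moved. In the early step, the fae1 count was 13 without the A libraries of 7-8 and 9-10 days and 0 to 17 with 1 library left out. The CL37 count was 7 with no filter, 6 with the share of non-unique alignments as a covariate and 5 to 10 with 1 library left out, and the PDAT count was 0 with that covariate and 1 to 5 with 1 library left out. In the late step, the fae1 count was 23 with that covariate, 26 without library C of either fae1 or CL37 at 11-12 days (both left out) and 26 to 39 with 1 library left out (26 without fae1 A of 11-12 days). For PDAT against fae1 at 7-8 days the count was 0 with no filter, with the covariate or without those C libraries, 9 without those A libraries and 0 to 7 with 1 library left out. For CL37 against fae1 at 11-12 days it was 13 with upper-quartile scaling, 11 by DESeq2, 19 without those A libraries, 3 without those C libraries and 2 to 10 with 1 library left out. For PDAT at 11-12 days it was 4 against CL37 without those A libraries, and 1 against fae1 by DESeq2 or without those A libraries. For the change with age it was 2 for CL37 against fae1 by DESeq2 (0 to 1 with 1 library left out), 2 for PDAT against CL37 without those A libraries, and 4 for PDAT against fae1 without those A libraries (0 to 2 with 1 library left out). The adjusted p of LHCB1.1 in the change with age ran from 0.00783 to 0.0849. Replicate letters are not stated to mark a batch, and libraries of the same letter correlated at -0.543 to 0.537 in their deviations, 14 of 27 best with their own letter. With the letter as a replicate block the counts were 20 for CL37 against fae1 at 11-12 days, 3 for its change with age and 2 for PDAT against fae1 at 7-8 days, and the other counts stayed within 1.5 times. Reversals were those of uncalled genes near 0. LHCA5 in fae1 was -0.036 with upper-quartile scaling, -0.049 with the covariate, -0.056 without those C libraries and -0.056 to 0.13 with 1 library left out, LHCA5 in CL37 was -0.19 to 0.13 with 1 library left out, and PSB27 in PDAT was -0.018 with the covariate. The changes of the 5 pair ratios kept their sign with any 1 library left out, a choice made after seeing the data, and their largest exact permutation p was 0.0005. With upper-quartile scaling the median log2 fold change of all genes in CL37 between 7-8 and 11-12 days was -0.143, against 0.00831 in the main fit. Depth limits LHCA6, LHCB1.4 and LHCB7, which had as few as 0, 3 and 3 counts in a library. Applying the same alternatives to the related lists was a choice made after seeing the data.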
